A study of Mus musculus with 8 samples.

Results

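The 10 BCL2 family genes described here, which set the survival threshold of monocytes and other cells, are Bcl2, Bcl2l1, Mcl1, Bcl2a1a, Bcl2a1b, Bcl2a1d, Bax, Bak1, Bid and Bcl2l11. They were chosen by name, and all 10 of the 10 are among the 15566 genes of the deposited count table. All 10 also passed the filter on low counts, which left 12938 genes for testing. The BCL2 family decides whether a cell starts the mitochondrial pathway of apoptosis. Its survival members, which include BCL2, BCL-XL (gene Bcl2l1), MCL1 and A1 (the Bcl2a1 genes), hold back the effectors BAX and BAK (Bak1), which otherwise open the outer mitochondrial membrane and release cytochrome c. BH3-only proteins such as BIM (Bcl2l11) and BID carry upstream death signals: they occupy the survival members or activate the effectors. Myeloid cells are short-lived, and MCL1 and A1 are known as survival factors of mouse granulocytes.

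The libraries hold polyadenylated RNA of Ly6C-high cells, the classical monocytes, which were sorted from the femur and tibia marrow of untreated male C57BL/6 mice 8 weeks old. In 4 libraries (deficient, LysMDCommd10) the cells came from mice in which LysM-Cre, a recombinase made in myeloid cells including granulocytes, deletes Commd10, whose protein belongs to the COMMD trafficking adaptors. The 4 control libraries came from littermates of like weight with the Commd10fl/fl genotype. The labels do not say which library came from which mouse, or whether animals were pooled, so p-values speak only for the scatter among these 8 libraries, which may be technical.

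Library totals were 14231121 to 31040255 counts, so 1 count stood for 0.0324 to 0.0703 CPM (the count relative to the TMM-scaled library size, the unit used below). Commd10 was at 21.3 ± 2.17 CPM in the deficient and 29.2 ± 1.46 CPM in the control libraries (SD, n = 4 each), and Cre was counted in every deficient library and at 0 in every control library. Deficient 2 stood apart in its group, with the lowest Cre (16.5 CPM of the total, against 24.8 to 33.3) and the highest Commd10 (24.4 CPM, against 19.6 to 20.8). The monocyte genes Ly6c2 (1742 to 2091 CPM), Ccr2 (2258 to 2505 CPM) and Csf1r (1069 to 1359 CPM) were abundant in all libraries. Ly6g and Kit, whose proteins the sort excluded, had at most 13 and 12 counts. Titles number the controls 2 to 6 and the deficient samples 11 to 14, so an order of handling, if that is what these stand for, cannot be told apart from genotype.

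Bcl2a1a, Bcl2a1b and Bcl2a1d are nearly identical copies, and their sequences bear on how far their counts can be read. All lie on GRCm38 chromosome 9, Bcl2a1d at 88723285 to 88731914 (minus strand), Bcl2a1a at 88956900 to 88962419 (plus strand) and Bcl2a1b at 89199209 to 89207827 (plus strand). Their coding sequences have 516 bases each and differ between pairs at 6 to 11 positions (97.9% to 98.8% identity). The 75-base stretch with the most differences is the first of the coding sequence, in exon 1, at chr9:88957051-88957125 (Bcl2a1a), chr9:89199360-89199434 (Bcl2a1b) and chr9:88731645-88731719 (Bcl2a1d, minus strand). It is shown 5′ to 3′ from the GENCODE M21 transcripts, with the 6 positions that are not the same in all 3 genes in capitals.
Bcl2a1a: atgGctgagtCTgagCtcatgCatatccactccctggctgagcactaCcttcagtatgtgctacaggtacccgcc
Bcl2a1b: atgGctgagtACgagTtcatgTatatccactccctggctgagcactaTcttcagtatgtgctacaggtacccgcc
Bcl2a1d: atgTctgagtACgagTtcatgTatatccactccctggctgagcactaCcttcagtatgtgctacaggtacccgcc

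Farther along, coding bases 95 to 311 are the same in all 3 genes, a run of 217 bases. The sequencing kit allowed 75 cycles, so a single read that starts inside most of this run cannot be given to 1 gene. The beginning of the run is printed once, at chr9:88957145-88957219 of Bcl2a1a.
shared stretch: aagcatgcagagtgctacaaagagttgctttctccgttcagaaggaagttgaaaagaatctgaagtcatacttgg

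Over whole transcripts, 44.8% of the 75-base windows of Bcl2a1a, 31.6% of those of Bcl2a1b and 32.4% of those of Bcl2a1d occur in no other annotated transcript of GENCODE M21. In Bcl2l1, Mcl1 and Bcl2l11 the share was 100%, and in Bcl2, Bax, Bak1 and Bid it was 84.3% to 95.3%. The sources used here do not say how reads that match more than 1 gene were counted. The 3 Bcl2a1 rows are therefore uncertain singly and are also given as their sum. If reads that match more than 1 gene were left out of the counts, the sum lacks them too. Exons of Bcl2a1b also overlap those of Gm29094 over 401 bases, those of Bcl2 overlap D630008O14Rik over 558 bases, and those of Bax overlap Gm45808 over 192 bases; these partners are not among the genes analysed here. Exons of Bak1 overlap Ggnbp1 over 614 bases, and those of Bid overlap Bcl2l13 over 628 bases. Without a stated strand setting such reads cannot be told apart. Ggnbp1 was at 1.47 CPM in controls and 1.62 CPM in deficient libraries, and Bcl2l13 at 69.0 and 73.3 CPM.

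**Figure D1:**
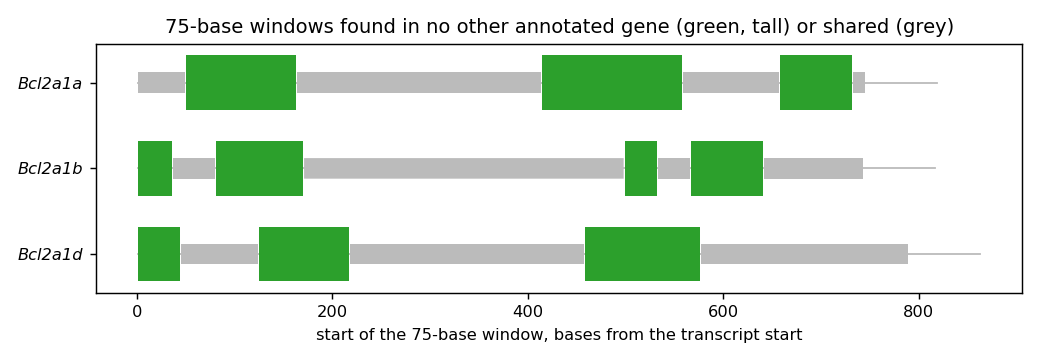
Windows of 75 bases along the transcripts of Bcl2a1a, Bcl2a1b and Bcl2a1d, by the start of the window in bases from the transcript start. Tall green blocks are windows found in no other annotated gene (44.8%, 31.6% and 32.4% of all windows), and grey bars are shared ones.

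The copies also resemble each other upstream of their starts. A stretch of 100 bases that ends 45 bases (Bcl2a1a, Bcl2a1b) and 1 base (Bcl2a1d) before the GENCODE start is shown 5′ to 3′ from the RefSeq promoter table (GRCm38.p6), at chr9:88956756-88956855, chr9:89199065-89199164 and, on the minus strand, chr9:88731915-88732014. Capitals mark GAGGAA on the strand shown, the PU box that the myeloid factor PU.1 is known to recognise, a motif chosen after the sequences were seen.
Bcl2a1a: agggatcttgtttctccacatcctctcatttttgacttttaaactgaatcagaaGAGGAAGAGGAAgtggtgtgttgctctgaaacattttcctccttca
Bcl2a1b: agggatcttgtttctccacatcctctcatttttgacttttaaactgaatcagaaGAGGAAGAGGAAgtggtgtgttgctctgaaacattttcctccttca
Bcl2a1d: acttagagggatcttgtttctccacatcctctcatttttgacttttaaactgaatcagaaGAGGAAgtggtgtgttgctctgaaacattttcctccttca

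The motif was taken from these copies, so its presence there is no finding. Searched on both strands, it occurred in 3 of the 10 promoter windows of 300 bases listed for the other 7 genes, 1 window each of Bcl2, Bid and Bak1. That is near the 28.3% of all 32851 promoter windows of the table that hold it. A match describes these letters only.

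In monocytes of both genotypes the RNA of the 6 survival genes described here was, per length, almost entirely that of Mcl1. Levels of different genes were compared per length, as CPM per kb of merged exons, over all 8 libraries. Mcl1 stood at 256 CPM per kb (228 to 271), above 99.1% of the 15551 table genes that have an annotated length. It made up 96.8% ± 0.31 (SD, n = 4) of the summed per-length level of the 6 survival genes in controls and 97.1% ± 0.30 (SD, n = 4) in deficient libraries. Mcl1 encodes a survival protein with a very short half-life.

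The effectors followed. Bak1 was at 89.0 CPM per kb (73.6 to 104) and Bax at 45.0 CPM per kb (40.0 to 48.0), both pore-forming members of the family. Bid, the BH3-only protein that caspase-8 cuts to its active form, was at 31.3 CPM per kb (29.1 to 32.9). BIM's gene Bcl2l11 was lower, at 7.71 CPM per kb (6.75 to 9.47), and Bcl2l1 was at 5.68 CPM per kb (4.85 to 6.29). In each of these first 6 places the lowest of 8 libraries lay above the highest library of the next gene. Libraries were compared in this way per kb of merged exons only. Per kb of the longest transcript the means of these 6 genes kept their order. On that scale Bax was at 64.4, Bid at 46.0, Bcl2l11 at 12.3 and Bcl2l1 at 10.1 CPM per kb.

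The last 4 genes could not be put in order. Bcl2a1d (0.677 CPM per kb), Bcl2 (0.604), Bcl2a1b (0.580) and Bcl2a1a (0.520) overlapped with their neighbours over the 8 libraries. Divided by the number of windows found in no other gene, a choice added after the data were seen, the Bcl2a1 genes came to 1.28 to 2.28 CPM per kb and stood above Bcl2 at 0.638 CPM per kb. Bcl2l1 at 5.43 CPM per kb and Mcl1 at 258 CPM per kb remained above them on that scale. Such a division is apt only if reads shared between genes were left out of the counts, which the sources do not say.

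**Figure D2:**
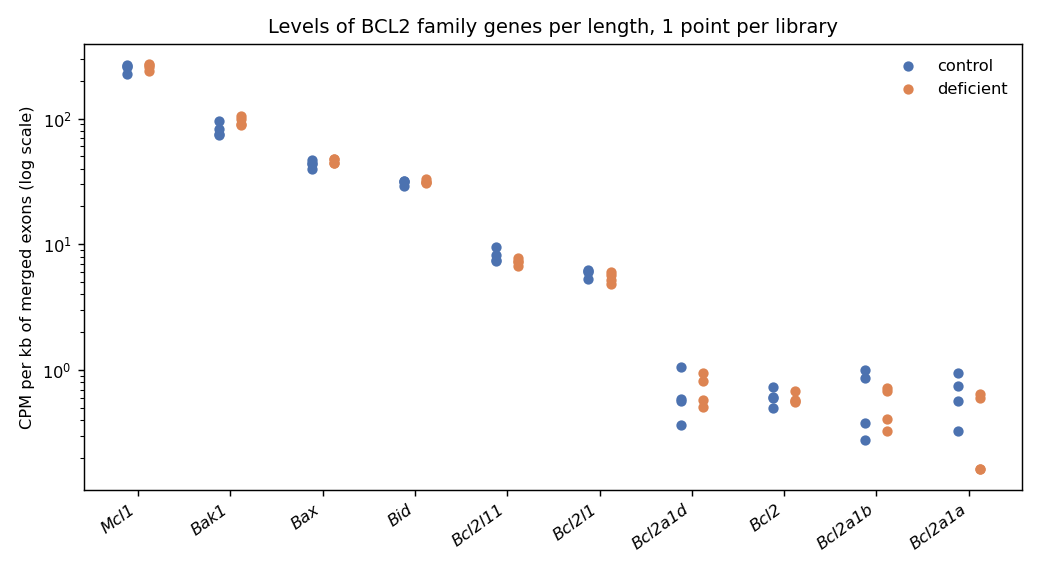
Levels of the 10 genes in CPM per kb of merged exons on a log axis, 1 point per library (4 control, 4 deficient), ordered by the mean of all 8. Mcl1 lies at 228 to 271, apart from the others, and the 3 Bcl2a1 genes and Bcl2 lie together at the bottom, all under 1.1.

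The comparison of deficient with control monocytes asked whether the Commd10-deficient genotype goes with a different expression of these genes. None of the 10 genes passed the threshold (edgeR, adjusted p under 0.05): 0 rose and 0 fell, where 0.873% of all genes tested passed (113 of 12938). With 1 library left out, that number over all genes lay anywhere from 1 to 522. At an unadjusted p under 0.05 stood 2 of the 10 (20%), Bak1 on the higher and Bcl2l11 on the lower side, beside 24% of all genes. DESeq2 had 0 of 10 past the adjusted threshold, beside 5.89% of all genes, and 1 of 10 (Bak1) at an unadjusted p under 0.05, beside 21.6%. In limma-voom it was 0 of 10 beside 0.85%, and 1 of 10 (Bak1) beside 24.8%. The groups overlapped in all 10 genes, whereas they did not overlap in 12.6% of all genes. The median log2 fold change was -0.0036 over the 10 genes and 0.00072 over all genes tested. These are bulk samples, so a lower value cannot tell fewer cells of a type from less RNA per cell.

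Among the survival genes, Mcl1 was at 779, 918, 893 and 877 CPM in control 1 to 4 and at 914, 820, 925 and 884 CPM in deficient 1 to 4. The groups covered nearly the same range, with the lowest value in a control. This gave a log2 fold change of 0.03 (edgeR, SE 0.06, adjusted p = 0.772), and the 95% interval of the deficient level ran from 93.9% to 111% of the control level. With 175014 counts over the 8 libraries, Mcl1 was the most deeply counted of the 10, and its interval among the narrowest.

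Bcl2l1 codes for BCL-XL, a survival protein of long-lived and erythroid cells. It was at 28.9, 28.1, 24.2 and 27.7 CPM in control 1 to 4 and at 25.9, 27.5, 23.9 and 22.2 CPM in deficient 1 to 4. Deficient 3 and 4 were below every control, while deficient 1 and 2 lay among them. In edgeR the log2 fold change was -0.13 (SE 0.08, adjusted p = 0.304), with an interval of 81.2% to 102% of the control level. Erythroid markers had summed levels of 408 to 715 CPM in controls and 252 to 476 CPM in deficient libraries, led by Hbb-bs and Hba-a1 at 227 and 92.9 CPM over all 8. All 7 tested of the 8 were lower in deficient libraries, with 0 past the threshold. Their part in the Bcl2l1 values was not tested.

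Bcl2, the founding survival gene, was low, at 5.51, 6.77, 5.62 and 4.54 CPM in control 1 to 4 and 5.14, 6.19, 5.20 and 5.25 CPM in deficient 1 to 4. The deficient values lay inside the control range. In edgeR the log2 fold change was -0.03 (SE 0.13, adjusted p = 0.906), with an interval of 80.5% to 119%. Lymphocytes are known for high Bcl2. The B cell markers (8 of 8 tested and lower in deficient libraries, 0 past the threshold) summed to 453 to 621 CPM in controls and 412 to 471 CPM in deficient libraries, led by Ighm and Cd79b at 437 and 14.7 CPM. Of the 8 T and NK cell markers, Cd3e, Cd3g, Trac, Ncr1 and Klrb1c are not among the genes analysed here, and the other 3 summed to at most 2.53 CPM. The part of these cells in the Bcl2 values was not tested.

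The A1 genes were counted rarely, with 286 counts for their sum over the 8 libraries. Their sum was at 33, 18, 34 and 59 counts in control 1 to 4 and 57, 27, 31 and 27 counts in deficient 1 to 4. On the CPM scale the sum was 1.29, 0.812, 2.39 and 1.91 in controls and 1.85, 0.898, 1.81 and 0.904 in deficient libraries. Both groups held libraries near 0.9 CPM and libraries near 1.8 CPM or above. For the sum edgeR gave -0.23 on the log2 scale (SE 0.35, adjusted p = 0.727), with an interval of 50.0% to 146% of the control level. A two-sided exact permutation test of the log2 CPM values gave p = 0.686, where the smallest possible is 0.0286. The interval of 50.0% to 146% gives the error of the estimate and is not a limit of detection. How small a change of the A1 genes could be detected at this depth was not tested.

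Taken singly, the A1 rows had differences of either sign. Bcl2a1a had 6 to 19 counts in controls and 4 to 15 in deficient libraries (log2 fold change -0.78, SE 0.47, adjusted p = 0.330). For Bcl2a1b the counts were 5 to 25 and 8 to 17 (-0.28, SE 0.42, adjusted p = 0.712). For Bcl2a1d they were 7 to 15 and 12 to 25 (0.20, SE 0.33, adjusted p = 0.740). The intervals of all 3 include no difference, and the rows can share reads. Bcl2a1c, a further copy on chromosome 9, is not among the genes analysed here.

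**Figure D3:**
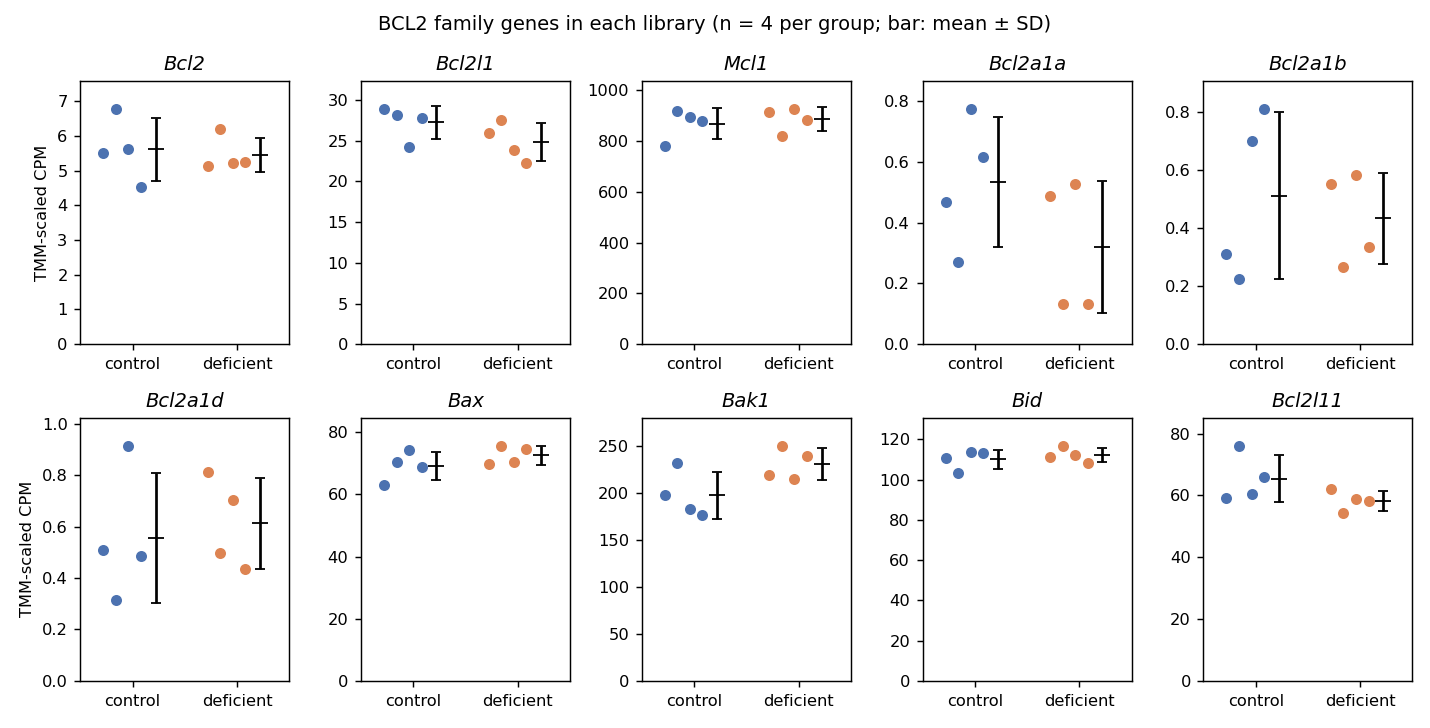
TMM-scaled CPM of each of the 10 genes in the 4 control (blue) and 4 deficient (orange) libraries, 1 point per library from replicate 1 to 4, with the mean ± SD beside them and axes from 0. The groups overlap in every panel. In Bak1 and Bax all 4 deficient libraries lie above the control mean, and in Bcl2l11 and Bcl2a1a all 4 lie below it.

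Of the effectors, Bak1 came closest to a difference. It was at 198, 232, 183 and 177 CPM in control 1 to 4 and 220, 250, 215 and 239 CPM in deficient 1 to 4. All 4 deficient libraries lay above the control mean, but control 2 was higher than deficient 1 and 3. The means were 231 ± 16.6 and 198 ± 24.7 CPM (SD, n = 4 each). This was a log2 fold change of 0.23 (edgeR, SE 0.08, adjusted p = 0.143), with an interval of 103% to 133% of the control level that is not adjusted for the number of genes. Without control 2 the log2 fold change was 0.31 and Bak1 passed (adjusted p = 0.0363), in a fit that called 2.24% of all genes. Without deficient 2 it was 0.19 (adjusted p = 0.339). Over the 8 fits that left out 1 library, its log2 fold change ranged from 0.18 to 0.31, with adjusted p-values of 0.0363 to 0.339.

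Bax did not differ beyond its spread. It ranged from 63.1 to 74.2 CPM in controls and 69.7 to 75.6 CPM in deficient libraries. As in Bak1, all 4 deficient libraries lay above the control mean (69.2 CPM) and 2 above every control. Its log2 fold change was 0.07 (edgeR, SE 0.05, adjusted p = 0.434), with an interval of 96.8% to 114%. Whether Bak1 and Bax differ in their response was not tested.

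Of the BH3-only genes, Bcl2l11 had the larger difference. Bcl2l11 was at 59.2, 76.0, 60.6 and 65.9 CPM in control 1 to 4 and 62.0, 54.2, 58.7 and 58.3 CPM in deficient 1 to 4. Deficient 2, 3 and 4 were below every control, and deficient 1 lay among them. With edgeR the log2 difference was -0.17 (SE 0.08, adjusted p = 0.202), with an interval of 79.5% to 99.8%, not adjusted for the number of genes. Over the fits that left out 1 library it ranged from -0.22 to -0.09, with adjusted p-values of 0.152 to 0.411, and without deficient 2 it was -0.13 (adjusted p = 0.411). Bid ranged from 103 to 114 CPM in controls and 108 to 117 CPM in deficient libraries (0.02, SE 0.04, adjusted p = 0.771), with an interval of 95.1% to 109%.

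Markers of granulocyte precursors are given here beside Bak1 and Bcl2l11. All 10 of the 10 were tested, and they summed to 1955, 2105, 1568 and 1741 CPM in control 1 to 4 and 2712, 3209, 1863 and 2898 CPM in deficient 1 to 4. Most of this was 1 gene, Chil3 (1875 CPM over all 8), which Ly6C-high marrow monocytes are also known to express, followed by Prtn3 (137 CPM). All 10 were higher in deficient libraries with 0 past the threshold. The sum was highest in deficient 2, where Bak1 was highest and Bcl2l11 lowest. Among controls the sum was highest in control 2. There Bak1 was the highest of the controls (232 CPM), but Bcl2l11 was the highest of all 8 libraries (76.0 CPM). Mature neutrophil markers, led by Csf3r and Cd177 at 376 and 325 CPM, summed to 1139 to 1247 CPM in controls and 1129 to 1305 CPM in deficient libraries. Their part in the results was not tested.

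Of the other cell types, stem and progenitor markers summed to at most 14.3 CPM, led by Cd34 and Meis1 at 5.89 and 5.15 CPM, with Hlf and Mecom not among the genes analysed here. Il7r and Nkg7 led the T and NK cell list at 1.10 and 0.948 CPM. The classical monocyte markers summed to 40850 to 44642 CPM in controls and 30414 to 32357 CPM in deficient libraries. Their directions were mixed, with 5 of the 10 higher in deficient libraries. Lyz2 (15708 CPM over all 8), the gene into which LysM-Cre is inserted, was the 1 of these 10 that passed the threshold, as lower, and Fn1 (9906 CPM) was the next most abundant.

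**Figure D4:**
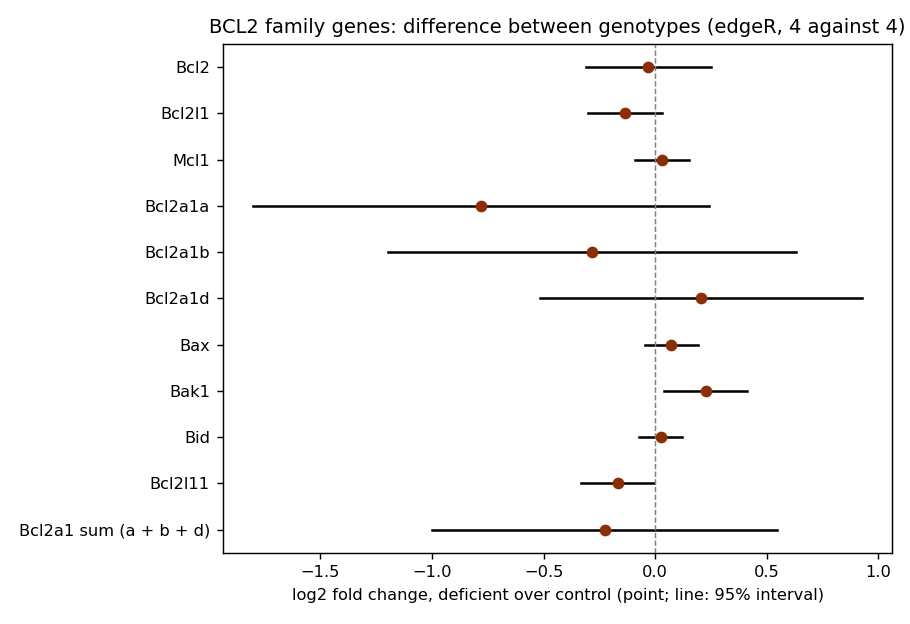
Log2 fold change of each of the 10 genes and of the summed Bcl2a1 genes, deficient over control, from edgeR with 4 libraries per group. Lines are 95% intervals: those of Mcl1, Bid and Bax are narrow around 0, those of the Bcl2a1 genes wide, and those of Bak1 (0.04 to 0.41) and Bcl2l11 (-0.33 to -0.003) lie on 1 side of 0 without passing the adjusted threshold.

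Other genes of the pathway were taken from 6 lists of 59 genes, of which 52 were tested. Of these 1 rose, 0 fell and the others did not pass, beside 0.356% of all genes that rose and 0.518% that fell. The gene that rose was Dynll1, a dynein light chain known to bind BIM and hold it to microtubule motors. Dynll1 was at 106, 103, 108 and 105 CPM in control 1 to 4 and 117, 138, 133 and 137 CPM in deficient 1 to 4. All deficient libraries lay above all controls, as in 5.93% of all genes, with the smallest step in deficient 1. With edgeR its log2 fold change was 0.32 (SE 0.05, adjusted p = 0.0292), 125% of the control level with an interval of 115% to 135%. The call was lost when control 1 was left out (adjusted p = 0.0646), as for control 3 (0.102), control 4 (0.113), deficient 4 (0.138) or the shallowest library of each group (0.0904). Over the 8 fits without 1 library its log2 fold change stayed between 0.29 and 0.37.

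Among relatives of the BH3-only and effector genes, Bik, Hrk and Bok are not among the genes analysed here and 0 of the 4 others passed. BMF, which binds the related light chain DYNLL2, had its gene Bmf at 72.5, 80.7, 76.4 and 93.6 CPM in control 1 to 4 and 72.1, 48.7, 66.4 and 64.5 CPM in deficient 1 to 4. Its groups did not overlap, as in 6.7% of all genes on the lower side, but deficient 1 was next to control 1 (edgeR, log2 fold change -0.36, SE 0.12, adjusted p = 0.134). Without deficient 2 it was -0.26 (adjusted p = 0.169). For Bad, which binds BCL-XL and BCL2, the log2 fold change was 0.21 (SE 0.08, adjusted p = 0.148).

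Bbc3 (PUMA) and Pmaip1 (NOXA, a partner of MCL1), named after their values were seen, had log2 fold changes of -0.40 (SE 0.16, adjusted p = 0.161) and -0.40 (SE 0.24, adjusted p = 0.355). Both are known targets of p53. In deficient 2, Bmf, Bbc3, Pmaip1 and Bcl2l11 had their lowest value of all 8 libraries, whereas Bad (39.6 CPM) and Bid (117 CPM) had their highest. The median of the 4 tested relatives was -0.38.

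The other lists held no gene past the threshold in edgeR with all 8 libraries. With deficient 1 left out, where 4.01% of all genes were called, Casp2 (adjusted p = 0.0390), Bnip3 (0.0430), Bnip3l (0.0469) and Tnfrsf1a (0.0350) passed, and with deficient 3 left out Casp2 did (0.0408). Of the 8 tested BCL2-related genes, Bnip3 and Bnip3l, receptors of mitophagy, were the nearest (log2 fold change -0.34, SE 0.08, adjusted p = 0.0585, and -0.20, SE 0.06, adjusted p = 0.105), with a list median of -0.10. Of the 13 apoptosome and caspase genes, Casp2, an initiator caspase, was nearest at 99.3 ± 3.24 against 114 ± 3.51 CPM (SD, n = 4 each; -0.20, SE 0.04, adjusted p = 0.0504), followed by Casp9, the initiator caspase of the apoptosome (0.12, SE 0.06, adjusted p = 0.219). The median of that list was -0.0016.

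Of the 9 inhibitors of apoptosis, Birc2 (-0.19, adjusted p = 0.176) and Naip2 (-0.10, adjusted p = 0.286) were nearest, with a median of -0.10. The Naip genes are closely related copies and uncertain singly. Of the 6 tested death receptor genes, Tnfrsf1a, the receptor TNFR1, was nearest at 321 ± 19.9 against 280 ± 9.03 CPM (SD, n = 4 each; 0.20, SE 0.05, adjusted p = 0.0664), with non-overlapping groups, as in 5.93% of all genes on the higher side. Fadd, its death adaptor, had -0.16 (SE 0.06, adjusted p = 0.125), and the list median was 0.05. The 12 regulators of BCL2 proteins had a median of 0.06, Dynll1 included.

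At an unadjusted p under 0.05 stood 14 of the 52 genes (26.9%), beside 24% of all genes. Besides Dynll1, Bmf and Tnfrsf1a, the named genes Bnip3, Bnip3l, Casp2 and Fadd had groups that did not overlap. These 4 were lower in deficient libraries, as were 6.7% of all genes without overlap. Over all genes DESeq2 placed 5.89% past the adjusted threshold, against 0.873% with edgeR. Of the genes named from these lists, it placed Dynll1 (adjusted p = 8.48e-05), Casp2 (0.00514), Tnfrsf1a (0.0149), Bnip3 (0.0256) and Bmf (0.0371) past the threshold, and limma-voom placed Dynll1 alone (0.0426).

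**Figure D5:**
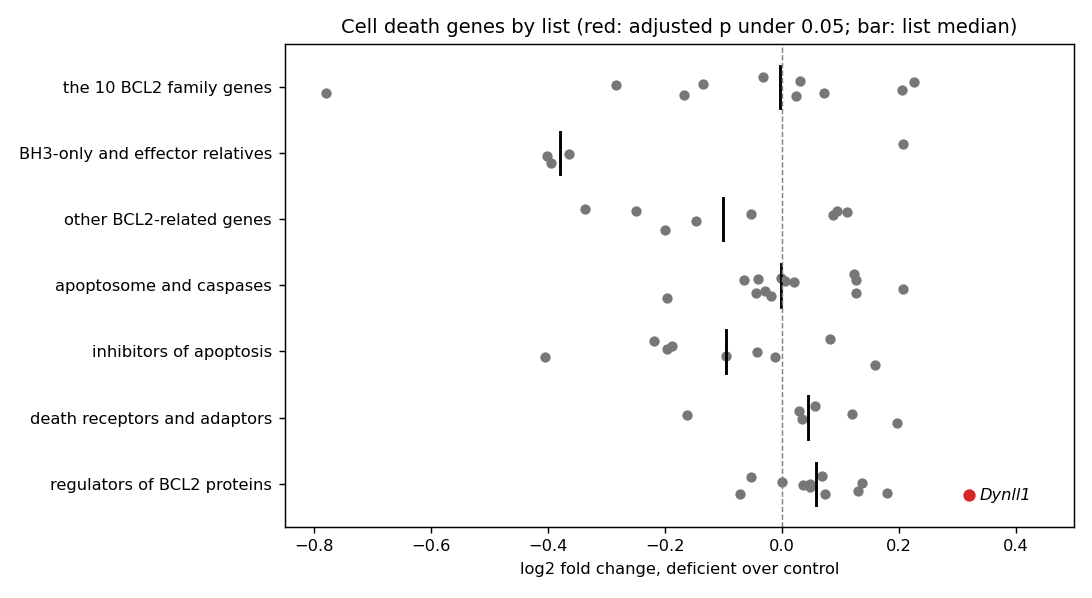
Log2 fold change, deficient over control, of the 10 BCL2 family genes and of the tested genes of 6 other lists, 1 point per gene, with the list median as a bar. Dynll1 (0.32) is the only red point, the 1 gene past the adjusted threshold of 0.05 in edgeR.

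The genes whose profile over the 8 libraries lay closest to that of a family member were found by the root mean square difference of log2 CPM, each gene centred on its own mean, among 8380 genes of at least 10 CPM. For the summed Bcl2a1 genes the 3 closest were Cd74, the invariant chain of MHC class II (0.23), H2-Ab1, an MHC class II beta chain (0.25), and Ciita, the transactivator of MHC class II genes (0.25), where the sum itself varied by 0.53 about its mean. Cd74 was at 311, 193, 430 and 343 CPM in control 1 to 4 and 277, 139, 308 and 164 CPM in deficient 1 to 4. Like the Bcl2a1 sum, it was lowest in deficient 2, deficient 4 and control 2 and highest in control 3. Dendritic cell markers, led by Tcf4 and Clec10a at 63.1 and 37.8 CPM, summed to 147, 127, 152 and 154 CPM in control 1 to 4 and 127, 101, 129 and 116 CPM in deficient 1 to 4. Of the 8 tested, 1 was higher in deficient libraries and 0 passed the threshold. Their part in the Bcl2a1 values was not tested.

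For Mcl1 the closest were Acvrl1 (0.029), Tmf1 (0.030) and Fmnl1 (0.030), where Mcl1 varied by 0.082. Each of these, like Mcl1, was lowest in control 1 and next lowest in deficient 2. For Bcl2 they were 4930579G24Rik (0.034), Med16 (0.084) and Mrpl3 (0.085), where Bcl2 varied by 0.16. 4930579G24Rik was at 17.8, 20.8, 17.3 and 14.9 CPM in control 1 to 4 and 17.0, 19.8, 16.5 and 16.8 CPM in deficient 1 to 4, highest in control 2 and lowest in control 4, as was Bcl2. Likeness over 8 libraries is a description of these samples.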

How the data were processed

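Polyadenylated RNA was read from 1 end on a NextSeq, according to the labels. The raw counts used here were deposited by the authors as 1 value per gene and library. The submitters' processing notes name GRCm38, cutadapt, STAR 2.7.3a, HTSeq 0.12.4 and DESeq2. The strand setting and the handling of reads that match several genes were not given in these sources. The 8 columns of normalized values in the table were not used. The row for Cre was left out of library sizes and tests. Each library counted as 1 replicate. Libraries of a group differed by a chi-square statistic of 2.88 to 23.4 per degree of freedom, which cannot show whether they came from separate animals.

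Low genes were removed by filterByExpr (count of at least 10, total of at least 15), and the rest were scaled with TMM and fitted with edgeR 4.0.16 (R 4.3.3), robust quasi-likelihood, genotype being the single term, two-sided, with Benjamini-Hochberg adjustment over all tested genes and a threshold of 0.05. Standard errors and 95% intervals were derived from the F statistic. The Bcl2a1 sum was fitted with its 3 rows merged, and by exact permutation over 70 assignments. DESeq2 1.42.0 and limma 3.58.1 (voom) were alternatives. Lengths and 75-base windows came from GENCODE M21 (GRCm38), and 15551 of the table's genes matched. The code was tested on simulated data. Intervals cover the model's error only, and no molecular identifiers are mentioned.

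The 10 genes and all lists were chosen with earlier results of these data known. Named are the 10 genes, Commd10 and Bcl2a1c, of each pathway list the genes past the threshold or else the 2 with the smallest p (and, added after their values were seen, Bbc3 and Pmaip1), of each marker list the 2 most abundant, and for Mcl1, Bcl2 and the Bcl2a1 sum the 3 closest profiles. For log2 values in the profile comparison a prior count of 2 was used.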

Additional observations from a re-analysis of the deposited data

Results flagged for a closer look

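Bcl2 was at 6.19 CPM in deficient 2, against 5.14 to 5.25 CPM in the other 3 deficient libraries, a gap that took up 0.888 of the group's range. It was 1 of 46 groups of 4 examined in this way, and chance marks about 1 in 20. The value rests on 186 counts, and control 2 was higher still, at 6.77 CPM. Without deficient 2 the log2 fold change of Bcl2 was -0.10 (edgeR, adjusted p = 0.730).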

How the results depend on the processing

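No paired analysis was possible because the labels give the groups no shared replicate numbers. Of the 10 genes, 0 were past the threshold under every alternative run except the fit without control 2, which called 1 (Bak1), so that the count ranged from 0 to 1 with 1 library left out. The number of genes called among all tested was 113 and moved to 762 with DESeq2, 41 with robust estimation off, 1 without the shallowest library of each group, and 1 to 522 with 1 library left out (1, 298, 3 and 8 without control 1 to 4, and 522, 29, 479 and 2 without deficient 1 to 4). The summed Bcl2a1 genes stayed negative under all 14 alternatives and below the threshold (log2 fold change -0.45 to -0.04, adjusted p 0.412 to 0.966). The sign turned in 4 of the 10 genes, each in 1 fit that left out a library: over those fits Mcl1 ranged from -0.018 to 0.066, Bcl2 from -0.13 to 0.073, Bid from -0.0074 to 0.041 and Bcl2a1b from -0.53 to 0.15. The causes were not tested. The low counts of the Bcl2a1 genes, 4 to 25 per row and library, limit what can be seen of them.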

Other observations

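The summed per-length level of Bax and Bak1 was 126 ± 10.5 CPM per kb in controls and 142 ± 8.73 CPM per kb in deficient libraries (SD, n = 4 each), with overlapping ranges, and that of Bid and Bcl2l11 was 39.2 ± 0.73 and 38.8 ± 0.77 CPM per kb (SD, n = 4 each).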
